A study of Homo sapiens with 6 samples.

Results

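The genes of integrin and laminin subunits were compared between RH30-SR MyoDΔ and RH30-SR rhabdomyosarcoma cells. A gene was included when its symbol was ITGA or ITGB, or LAMA, LAMB or LAMC, followed only by the number or letter of a subunit, and when a transcript cluster of the array carried that symbol and no other. Where a gene had several such clusters, the cluster with the highest mean over all arrays was read. These rules gave 34 of the 22448 genes on the array, 26 for integrin subunits and 8 for laminin chains. LAMA5 and LAMB3 shared a cluster with another symbol and gave no value of their own.

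Total RNA was measured on whole-transcriptome arrays, in 2 groups of 3. RH30-SR MyoDΔ cells were RH30 cells infected with the IκBα super-repressor and a guide RNA against MyoD, and all 3 arrays came from a single CRISPR clone, number 29. RH30-SR cells carried the same super-repressor and were labelled as the control, and whether they had been given Cas9 or any guide is not in the labels. Loss of MyoD, exposure to the guide and growth from a single clone therefore cannot be told apart. RH30 is a human cell line from an alveolar rhabdomyosarcoma, a tumor with features of skeletal muscle, and the super-repressor, which both groups carried, blocks NF-κB. The comparison asked which genes depend on MyoD, the transcription factor that commits cells to muscle, when NF-κB is off. The labels do not say whether the replicates were separate cultures, so that p-values measure only the spread between these arrays and not that between clones.

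Integrins are receptors made of an alpha and a beta chain, which bind the extracellular matrix or other cells outside and the actin cytoskeleton inside. Laminins are trimers of an alpha, a beta and a gamma chain, and they form the sheet of the basement membrane that wraps each muscle fiber. In muscle, integrin α7β1 holds the fiber to laminin, and mutations in the genes of the integrin α7 chain or of the laminin α2 chain cause congenital muscle disease.

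MYOD1, the targeted gene, read 6.95, 7.16 and 6.90 in the MyoDΔ arrays, against 9.09, 9.50 and 9.43 in the RH30-SR arrays, in log2 RMA units (the logarithm of the normalized probe signal of a transcript cluster). All MyoDΔ arrays lay below all RH30-SR arrays. Its log2 fold change, here and below MyoDΔ minus RH30-SR, was -2.34 ± 0.12 (SE; limma adjusted p = 1.02e-04). Each gene in a list of 10 skeletal muscle markers, with MYOD1 as a member, was called lower (median log2 fold change -2.20), against 4.20% of all genes. This list was chosen with earlier results of these data known. The study also reports less myogenin, troponin T and myomaker RNA when MyoD was knocked down. The log2 values of the list summed to 66.58 to 66.64 in MyoDΔ arrays and 89.56 to 90.90 in RH30-SR arrays. The part of this wider loss of muscle genes in the differences below was not tested. In RNA from bulk cells, fewer cells that express a gene and less RNA per cell cannot be told apart. Pairs of arrays correlated at 0.994 to 0.997 within a group and at 0.989 to 0.992 between groups, across clusters. The precision was limited by the number of arrays.

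Genes were called where the adjusted p was below 0.05 and the groups differed by over 25%, and 10 of the 34 subunit genes met both conditions (29.4%), against 7.01% of all genes. ITGB8, ITGA7, ITGA4, LAMC1, ITGB6, ITGB2, LAMA2 and ITGB5 were lower in MyoDΔ cells, 8 genes against a background of 4.20% called lower. ITGB3 and ITGA5 were higher, 2 genes against a background of 2.81% called higher. Among the 26 integrin genes 6 were lower and 2 higher, and among the 8 laminin genes 2 were lower and 0 higher. The median log2 fold change was -0.02 over the 34 genes and -0.01 over all genes. ITGB8 and ITGA7 were the only members past 2-fold, against 0.780% of all genes.

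**Figure D1:**
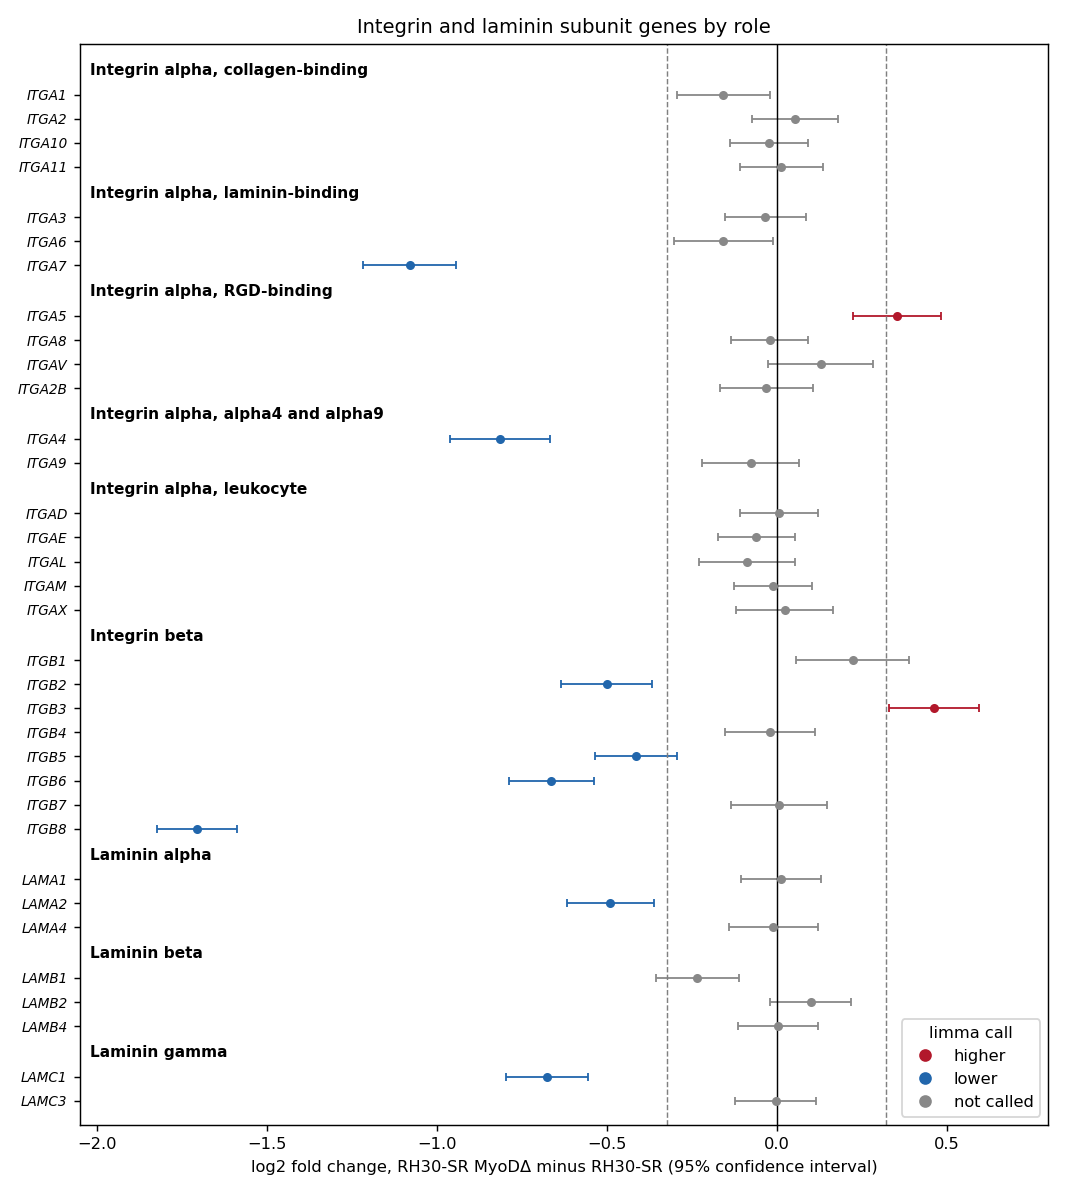
Log2 fold change (MyoDΔ minus RH30-SR, horizontal axis) of each of the 34 subunit genes, grouped by role down the page, with the 95% confidence interval of the limma fit. Dashed lines mark the fold threshold (0.322 on the log2 scale in either direction); the 8 lower genes lie left of it, ITGB3 and ITGA5 lie right of it, and the 24 genes not called lie between the lines.

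The laminin chains that make up the main laminin of the muscle basement membrane are α2, β1 and γ1, encoded by LAMA2, LAMB1 and LAMC1. LAMA2 and LAMC1 were lower in MyoDΔ cells, and LAMB1 had the same sign without reaching the fold threshold. These chains were grouped after the values were known. LAMC1, whose γ1 chain is shared by most laminins, read 8.63, 8.59 and 8.59 in MyoDΔ arrays, against 9.33, 9.23 and 9.28 in RH30-SR arrays. The groups were clearly separate, with little spread inside either. Its log2 fold change was -0.68 ± 0.05 (SE; limma adjusted p = 5.40e-04), or 1.60-fold lower.

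LAMA2, the α2 chain gene of muscle and peripheral nerve, read 6.74, 6.69 and 6.62 in MyoDΔ arrays, against 7.15, 7.16 and 7.21 in RH30-SR arrays. The highest MyoDΔ value stayed below the lowest RH30-SR value. The difference was -0.49 ± 0.05 (SE; limma adjusted p = 0.00301), or 1.40-fold. LAMB1 read 7.85, 7.84 and 7.81 in MyoDΔ arrays, against 8.13, 8.03 and 8.04 in RH30-SR arrays. These values did not overlap either, and the adjusted p of LAMB1 was 0.0464, but its difference of -0.23 ± 0.05 (SE) was under the fold threshold and it was not counted as called.

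The remaining laminin genes gave no call. LAMB2, the β2 chain found at the neuromuscular junction, differed by 0.10 ± 0.05 (SE; limma adjusted p = 0.357), with all MyoDΔ arrays (6.55 to 6.60) above all RH30-SR arrays (6.43 to 6.52). LAMC3 differed by -0.00. LAMA1, an embryonic α chain, LAMA4, an α chain of vessels and other mesenchymal tissue, and LAMB4 differed by 0.01, -0.01 and 0.00, and in both groups all 3 lay under 4.295, the median of all clusters. At such levels a difference could have been missed, since the files held no measure of background.

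Receptors for laminin pair α3, α6 or α7 with a β chain, and of these only ITGA7 was called. ITGA7, the α chain of the main laminin receptor of muscle, read 5.61, 5.48 and 5.50 in MyoDΔ arrays, against 6.60, 6.66 and 6.57 in RH30-SR arrays. About a whole log2 unit separated the groups, many times their inner spread (SD 0.07 and 0.05, n = 3 each). The log2 fold change was -1.08 ± 0.06 (SE; limma adjusted p = 1.18e-04), or 2.11-fold lower. ITGA6 differed by -0.16 ± 0.06 (95% confidence interval -0.30 to -0.01, adjusted p = 0.228) and ITGA3 by -0.03 ± 0.05 (-0.15 to 0.09, adjusted p = 0.801). Neither interval reached that of ITGA7 (-1.22 to -0.94). ITGB4, whose β4 chain pairs with α6 in the hemidesmosomes of epithelia, differed by -0.02 ± 0.06 (adjusted p = 0.904).

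ITGA4, the α4 chain that binds VCAM-1 and fibronectin, was lower. It read 5.92, 6.01 and 5.97 in MyoDΔ arrays, against 6.82, 6.68 and 6.84 in RH30-SR arrays. RH30-SR replicate 2 was the lowest of its group, yet it too was far above every MyoDΔ array. The log2 fold change was -0.81 ± 0.06 (SE; limma adjusted p = 5.69e-04), or 1.76-fold. ITGA9, the nearest relative of ITGA4 among the α chains, differed by -0.08 ± 0.06 (adjusted p = 0.579), and its values overlapped between the groups (4.24 to 4.28 against 4.28 to 4.44). The 4 collagen-binding α chain genes, ITGA1, ITGA2, ITGA10 and ITGA11, gave 0 calls, against 7.01% of all genes. Their log2 differences ran from -0.16 (ITGA1) to 0.05 (ITGA2). ITGA2 averaged 3.24 in MyoDΔ and 3.18 in RH30-SR arrays, and ITGA10 averaged 4.14 and 4.17, all under the median of all clusters. ITGA9, at 4.26 and 4.34, lay on either side of that median. At such levels a difference in ITGA2, ITGA10 or ITGA9 could have been missed.

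**Figure D2:**
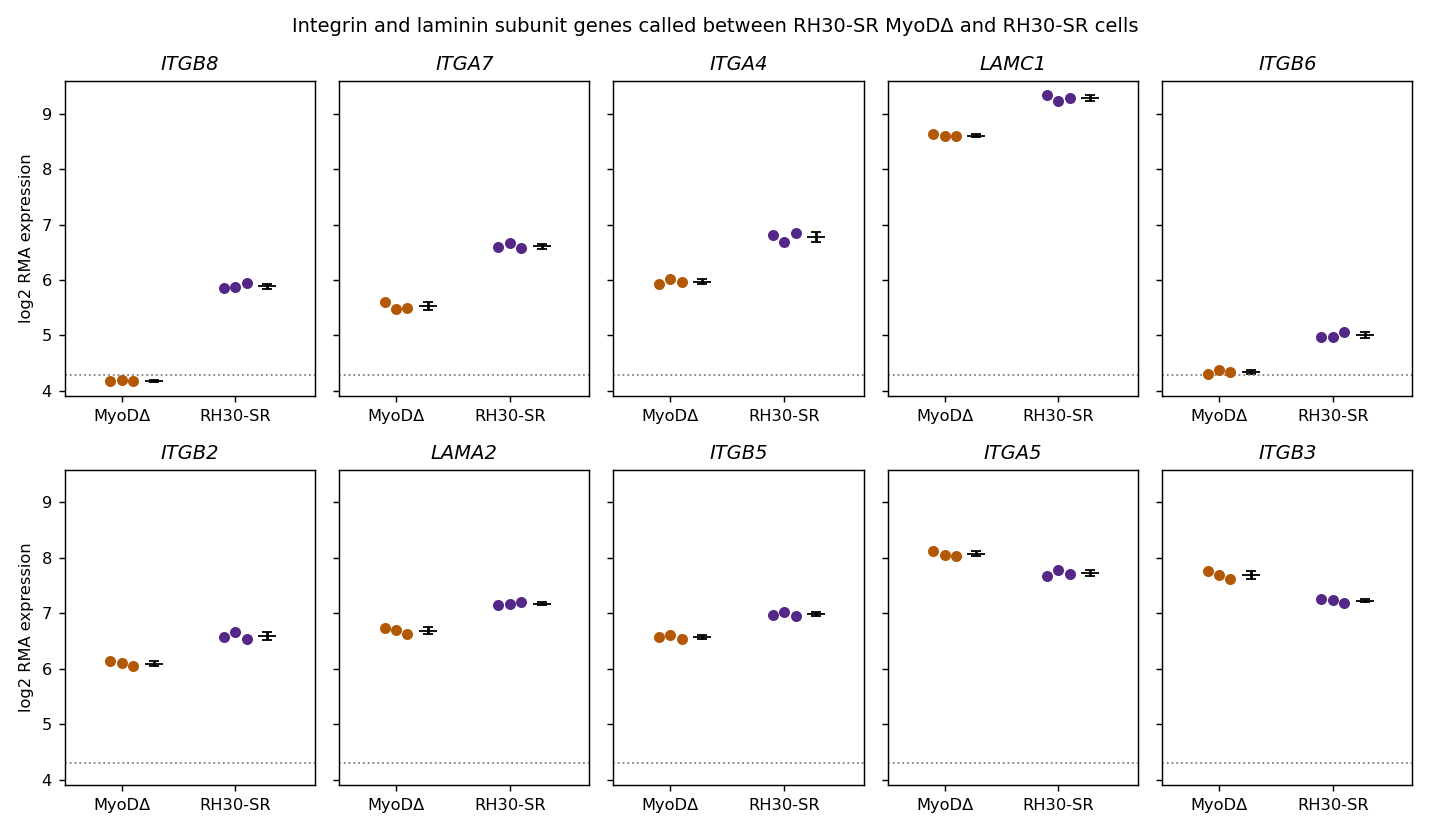
Log2 RMA expression (vertical axis, the same scale in every panel) of the 10 called subunit genes in the 3 MyoDΔ arrays (orange, left) and the 3 RH30-SR arrays (purple, right), with the mean and SD of each group beside the points. The dotted line is the median of all clusters (4.295); in each panel the groups do not overlap, and ITGB8 is the only called gene whose MyoDΔ mean (4.18) falls below that line.

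Several β chains share the αv chain as their partner, and the genes of this set moved in both directions. The αv gene itself, ITGAV, did not pass the test, at 0.13 ± 0.07 (SE; 95% confidence interval -0.02 to 0.28; limma adjusted p = 0.352). Of its 5 partners ITGB5, ITGB6 and ITGB8 were lower, ITGB3 was higher and ITGB1 was not called. The called share was 80.0%, against 7.01% of all genes, and the median of the 5 log2 fold changes was -0.41. The grouping by partner is textbook knowledge and was made after the values were known. ITGB8, which with αv binds and activates latent TGF-β, read 4.17, 4.20 and 4.17 in MyoDΔ arrays, against 5.85, 5.87 and 5.94 in RH30-SR arrays. It had the largest fall of the 34 genes, -1.71 ± 0.05 on the log2 scale (SE; limma adjusted p = 1.06e-05), or 3.26-fold. The size of this fall is uncertain, because the MyoDΔ level (4.18 ± 0.02, SD, n = 3) lay below the median of all clusters.

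ITGB6, another β chain of TGF-β activation, best known from epithelia, read 4.31, 4.38 and 4.34 in MyoDΔ arrays, against 4.97, 4.98 and 5.07 in RH30-SR arrays. The groups were far apart, with SDs of 0.04 and 0.06 (n = 3 each). Its log2 fold change was -0.66 ± 0.05 (SE; limma adjusted p = 7.08e-04), with a MyoDΔ level just above the median of all clusters. ITGB5, whose β5 chain binds vitronectin with αv, read 6.58, 6.60 and 6.53 in MyoDΔ arrays, against 6.97, 7.03 and 6.95 in RH30-SR arrays. There was no overlap, and the difference of -0.41 ± 0.05 (SE; limma adjusted p = 0.00487) was the smallest among the 8 lower genes.

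ITGB3, the β3 chain of the vitronectin receptor αvβ3 and of the platelet fibrinogen receptor, was higher in MyoDΔ cells. It read 7.76, 7.69 and 7.62 in MyoDΔ arrays, against 7.25, 7.24 and 7.19 in RH30-SR arrays. Every MyoDΔ value was above every RH30-SR value. The rise was 0.46 ± 0.06 on the log2 scale (SE; limma adjusted p = 0.00448), or 1.38-fold. The platelet partner of β3, ITGA2B, differed by -0.03 ± 0.06 (adjusted p = 0.853).

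ITGA5, which forms the classical fibronectin receptor α5β1, read 8.13, 8.05 and 8.04 in MyoDΔ arrays, against 7.68, 7.78 and 7.70 in RH30-SR arrays. The groups did not overlap. The rise was 0.35 ± 0.06 (SE; limma adjusted p = 0.0122), or 1.28-fold, close to the fold threshold. The call was lost without MyoDΔ replicate 1 (0.33, adjusted p = 0.0525) and without RH30-SR replicate 3 (0.34, adjusted p = 0.0538). ITGA8, an α chain that like α5 recognises the RGD motif of its ligands, differed by -0.02 ± 0.05, and each of its 6 values was under the median of all clusters.

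The study itself picked ITGB3 and ITGA5 for PCR and for a guide RNA library on these cells, so that their direction here is not independent evidence. The fold here, 1.38 for ITGB3 and 1.28 for ITGA5, was below the array cut that the study states for its PCR candidates. For the library the study states a further cut, on PCR values. Its own PCR values were not read here, and its screen with the library enriched CYLD. The guides are shown because these 2 genes are the called members that rose. In the lines below the capitals mark the guide itself, 20 bases 5′ to 3′, and a lower-case g is a base added in front of it. Their positions in the genome were not worked out here, beyond the chromosomes of the genes, 17 for ITGB3 and 12 for ITGA5.
ITGB3 guide 2: gACCTCGCGTGGTACAGATGT
ITGB3 guide 3: gTAACCTGCGGATTGGCTTCG
ITGA5 guide 1: GGGCTTCAACTTAGACGCGG
ITGA5 guide 2: gTTTACCGGCCGGGAACAGAC

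ITGB1, the β chain that pairs with 12 of the α chains measured here, was not called. It read 10.60, 10.62 and 10.67 in MyoDΔ arrays, against 10.47, 10.27 and 10.48 in RH30-SR arrays. All MyoDΔ arrays lay above all RH30-SR arrays, and RH30-SR replicate 2 was apart from the rest of its group. The log2 difference was 0.22 ± 0.07 (SE; limma adjusted p = 0.135), with a 95% confidence interval of 0.06 to 0.39 that reached past the fold threshold. The other clusters that carried its symbol differed by 0.16 (adjusted p = 0.181) and -0.02 (adjusted p = 0.939). Of its 12 α partners ITGA4 and ITGA7 were lower and ITGA5 was higher, while 9 gave no call and the median of the 12 log2 fold changes was -0.03.

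ITGB2 encodes the β2 chain of leukocyte integrins, and it was lower in MyoDΔ cells. It read 6.13, 6.10 and 6.05 in MyoDΔ arrays, against 6.57, 6.67 and 6.54 in RH30-SR arrays. The ranges were apart. The log2 fold change was -0.50 ± 0.06 (SE; limma adjusted p = 0.00342), or 1.41-fold lower. None of the α chains that pair with β2 was called, with -0.09 for ITGAL, -0.01 for ITGAM, 0.02 for ITGAX and 0.01 for ITGAD. ITGB2-AS1, the gene antisense to ITGB2, read 4.42, 4.50 and 4.36 in MyoDΔ arrays and 4.52, 4.65 and 4.48 in RH30-SR arrays. The difference was -0.12 ± 0.07 (limma adjusted p = 0.393). ITGAL (means 4.41 in MyoDΔ and 4.49 in RH30-SR arrays) and ITGB2-AS1 lay close to the median of all clusters (4.295). A difference in either could have been missed.

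Markers of leukocytes and of other cell types were read beside ITGB2. Of 11 measured leukocyte markers 0 were called by limma, against 7.01% of all genes. At that share, 0 calls in so short a list decide nothing about cell type. Group means of 5 of the 11 lay under the median of all clusters. The summed level of the list was 44.98 to 45.11 in MyoDΔ arrays and 45.18 to 45.64 in RH30-SR arrays. PTPRC, the common leukocyte antigen CD45, averaged 2.33 ± 0.02 in MyoDΔ arrays and 2.30 ± 0.02 in RH30-SR arrays (SD, n = 3 each), near the bottom of the array range (0.91). CD34, the entry of this list with the lowest adjusted p (0.110) and not specific to leukocytes, differed by -0.17 ± 0.05. ITGAE and ITGB7, which pair on lymphocytes of the gut, differed by -0.06 and 0.01. Epithelial markers (10 measured) gave 0 calls as well, with -0.16 ± 0.05 for CLDN4 (adjusted p = 0.109). This list has the same limit, and group means of 3 of the 10 lay under the median of all clusters. Of 9 endothelial markers 1 was called, PECAM1 (11.1%, against 7.01% of all genes). It was lower (-0.48 ± 0.10, limma adjusted p = 0.0420), with means of 3.57 in MyoDΔ and 4.05 in RH30-SR arrays, both under the median of all clusters. PECAM1 lost this call when any array but MyoDΔ replicate 3 was left out (adjusted p = 0.0661 to 0.128).

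For the 24 members that were not called, the fit gave an interval for the difference in signal. It reflects only the spread between these arrays. In 22 of the 24 members the whole 95% confidence interval lay inside the fold threshold of 0.322 in either direction. Their bounds ran from -0.30 to 0.28. Levels of 6 of the 24 lay under the median of all clusters (ITGA2, ITGA8, ITGA10, LAMA1, LAMA4 and LAMB4). There a narrow interval does not bound the change, since no measure of background was available. The exceptions were ITGB1 and LAMB1, described above. The largest fold among uncalled members was 17.6%, that of LAMB1. In 17 of the 34 genes the groups did not overlap, 12 lower and 5 higher, whereas 34.2% of all genes (18.4% lower and 15.8% higher) had groups without overlap. These 17 comprised the 10 called genes and ITGA1, ITGA6, ITGAE and LAMB1 on the lower side and ITGAV, ITGB1 and LAMB2 on the higher side.

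Replicates of these genes agreed closely. The SD of a member over 3 arrays had a median of 0.036 in MyoDΔ and 0.046 in RH30-SR cells, and its highest value was 0.089 (ITGB7) in MyoDΔ and 0.118 (ITGB1) in RH30-SR cells. RH30-SR replicate 2 was the array farthest from its group mean in 23 of the 34 members. Without it the number of called members was 10, as with it.

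Promoter windows were read from RefSeq (GRCh38.p14), which held 28 windows for 23 of the 34 genes, each with 250 bases before and 50 after a transcription start. MyoD binds E boxes, with the letters CANNTG, so this motif was searched in each window. It reads the same on both strands, and its forms include CAGCTG, and CAGGTG with its reverse complement, which reads CACCTG. The motif CANNTG was present in 15 of the 28 windows (53.6%), against 68.7% of 35116 windows of all genes. In the windows of genes called lower, which include 3 windows of ITGB5, it was present in 3 of 8 (37.5%), and in those of uncalled members in 11 of 19 (57.9%). Of the called genes ITGA7, ITGB2 and ITGB3 had no window and were not searched. CAGCTG was in 6 of 28 windows (21.4%, against 17.9% of all windows), and CAGGTG or CACCTG in 5 of 28 (17.9%, against 20.6%). A match describes only these letters in these windows.

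From these windows (GRCh38.p14) the 250 bases before the start are shown for the largest fall, ITGB8, for ITGB6, a fall with a CANNTG match, and for ITGA5, a rise with a CANNTG match. Capitals mark each CANNTG, and all sequences run 5′ to 3′ on the strand of the gene. The ITGB8 sequence (chr7:20330650-20330899, plus strand) has 0 matches. ITGB6 (chr2:160200273-160200522, minus strand) has CACCTG with its first base at -70 from the start, and ITGA5 (chr12:54419267-54419516, minus strand) has CAGCTG at -175. LAMA2 had its single match, CAGCTG, at 11 after the start, and the windows of ITGA4 and LAMC1 had none.
ITGB8: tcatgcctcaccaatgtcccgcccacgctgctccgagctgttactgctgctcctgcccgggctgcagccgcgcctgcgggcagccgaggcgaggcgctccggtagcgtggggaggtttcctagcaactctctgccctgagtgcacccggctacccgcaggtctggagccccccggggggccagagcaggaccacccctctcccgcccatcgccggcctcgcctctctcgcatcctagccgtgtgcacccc
ITGB6: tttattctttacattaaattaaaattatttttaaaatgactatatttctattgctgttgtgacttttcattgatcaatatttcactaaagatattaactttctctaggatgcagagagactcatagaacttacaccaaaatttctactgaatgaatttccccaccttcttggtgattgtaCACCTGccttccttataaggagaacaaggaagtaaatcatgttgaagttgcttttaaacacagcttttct
ITGA5: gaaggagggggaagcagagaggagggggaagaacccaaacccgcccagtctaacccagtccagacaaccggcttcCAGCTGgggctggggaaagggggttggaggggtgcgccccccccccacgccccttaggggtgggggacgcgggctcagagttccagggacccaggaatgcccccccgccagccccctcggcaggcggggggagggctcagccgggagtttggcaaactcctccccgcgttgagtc

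Around the receptors, 3 lists of related genes were read in the same fit. In these lists together 87 genes were measured, of which 8 rose, 6 fell and 73 gave no call (16.1% called, against 7.01% of all genes). Inside the cell, adaptors and activators link integrin tails to actin and to signaling. Their called share of 5.41% was the lowest of the 3 lists, and it was near the 7.01% of all genes. Of 37 measured genes CAV1, the caveolin 1 gene, was higher (0.53 ± 0.05, SE; limma adjusted p = 0.00199), TNS3, a tensin of focal adhesions, was lower (-0.45 ± 0.05, adjusted p = 0.00371), and 35 were not called, a called share of 5.41%. TLN1 (talin, which activates integrins) and VCL (vinculin) both differed by 0.03, PTK2 (focal adhesion kinase) by 0.05 and ILK (integrin-linked kinase) by -0.14 (adjusted p = 0.200). In 33 of the 35 uncalled adaptor genes the 95% confidence interval lay inside the fold threshold, and the exceptions were CD151 (-0.28, adjusted p = 0.181) and PXN (0.19, adjusted p = 0.189).

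Among 20 measured genes of the basement membrane and of laminin partners, 2 rose, 3 fell and 15 gave no call, around a median log2 fold change of -0.02. SPARC, a collagen-binding matricellular protein, read 8.65, 8.60 and 8.61 in MyoDΔ arrays, against 9.59, 9.68 and 9.69 in RH30-SR arrays, a difference of -1.03 ± 0.05 (SE; limma adjusted p = 9.38e-05). FRAS1, a basement membrane protein of skin and kidney development, was also lower (-0.62 ± 0.06, adjusted p = 0.00141). NTN4, which encodes a netrin that binds laminin γ1, was the largest rise, with 7.08, 7.15 and 7.04 in MyoDΔ arrays, against 6.24, 6.38 and 6.41 in RH30-SR arrays (0.75 ± 0.06; adjusted p = 9.76e-04). The study chose NTN4 for PCR from these cells too. DST, a linker of hemidesmosomes, rose by 0.51, and COL15A1, a collagen of the muscle basement membrane, was lower (-0.41). COL4A1 (0.28, adjusted p = 0.0281) and COL4A2 (0.29, adjusted p = 0.0472), the chains of the basement membrane collagen network, had adjusted p below 0.05 under the fold threshold. HSPG2 (perlecan) differed by 0.24 (adjusted p = 0.112) and NID1 (nidogen) by 0.01 (adjusted p = 0.955).

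Among 30 measured matrix and cell-surface ligands of integrins, 5 rose, 2 fell and 23 gave no call. The called share was 23.3%, against 7.01% of all genes, and the median log2 fold change was -0.04. FN1, fibronectin, the ligand of α5β1, α4β1 and αv integrins, read 9.84, 9.80 and 9.79 in MyoDΔ arrays, against 7.63, 7.64 and 7.59 in RH30-SR arrays (2.19 ± 0.05, SE; limma adjusted p = 3.58e-06). FBN1, fibrillin, an RGD protein of microfibrils, read 9.19, 9.10 and 9.09 in MyoDΔ arrays, against 8.00, 7.99 and 8.03 in RH30-SR arrays (1.12 ± 0.05). TNC, tenascin C, a ligand of α9β1 and αv integrins, was lower, with 9.45, 9.37 and 9.37 in MyoDΔ arrays, against 10.57, 10.50 and 10.52 in RH30-SR arrays (-1.13 ± 0.05; adjusted p = 6.13e-05). FN1 and its receptor gene ITGA5 were both called higher while ITGA4, which encodes part of another fibronectin receptor, was called lower. The ITGA5 call was lost when certain single arrays were left out. ITGB1 and ITGAV, which encode further chains of the fibronectin receptors named here, were not called. FN1 is also among the genes that the study chose from these cells. POSTN (periostin) rose by 1.01, but at means of 3.43 in MyoDΔ and 2.42 in RH30-SR arrays, both under the median of all clusters, the size of its rise is uncertain. THBS1, thrombospondin, was the other lower gene (-0.72), and TGFBI (0.89) and CYR61, now CCN1 (0.54), completed the higher genes.

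**Figure D3:**
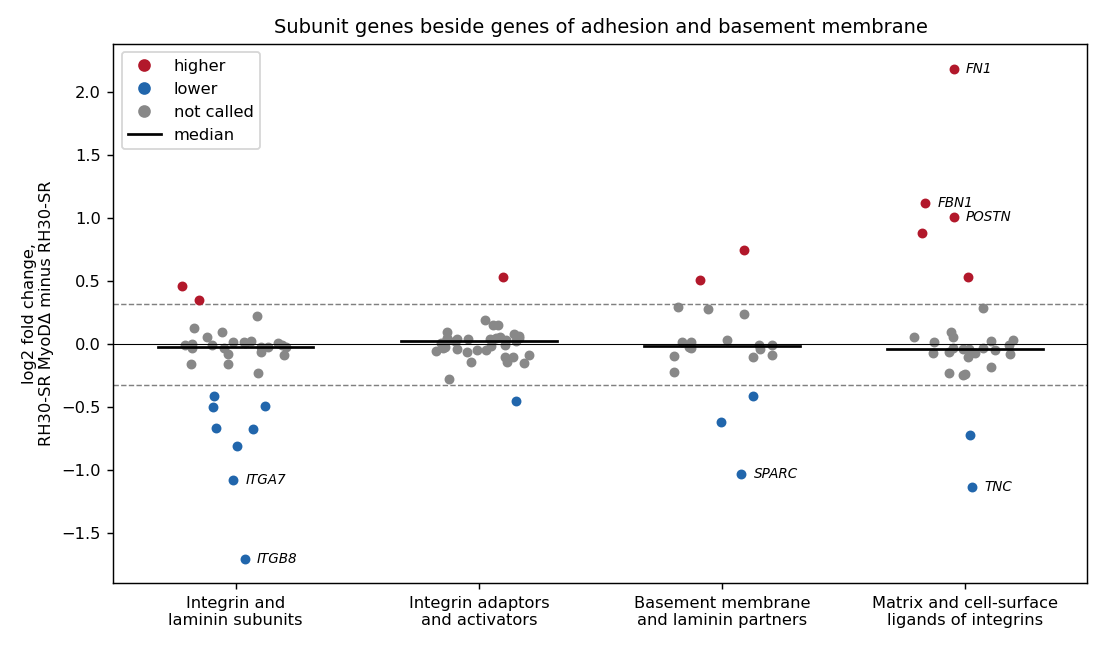
Log2 fold change (MyoDΔ minus RH30-SR, vertical axis) of each gene in the 34 subunit genes and in 3 lists of related genes (37, 20 and 30 measured), with the list median as a bar and the fold threshold as dashed lines. The medians lie between -0.04 and 0.02, and FN1 at 2.19 and ITGB8 at -1.71 are the outermost points.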

How the data were processed

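The arrays were Affymetrix Human Transcriptome Arrays of total RNA. The deposited table held 1 log2 value per transcript cluster and array, made by the authors with RMA, that is background correction, quantile normalization and median polish. Affymetrix Expression Console is the program in the submitters' notes. The tool versions and the genome build are not given in the sources used here. Quantile normalization hides a shift shared by most transcripts. Control probes and a background measure were not used here. A further deposited table of these arrays was left out.

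Of 65535 clusters, 22758 carried 1 symbol of the platform annotation (22448 genes), 1389 carried several and 41388 were unnamed here. The 6 arrays were fitted with limma 3.58.1 (lmFit and eBayes) in R 4.3.3 on all clusters, with group as the only term, and p-values were two-sided and Benjamini-Hochberg adjusted over all clusters. Called genes had an adjusted p under 0.05 and differed by more than 25%, as in the methods of the study. The procedure was tested on simulated data. Levels are mean ± SD and differences are with the moderated SE.

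The members, the 7 lists of other genes and the alternatives were chosen with earlier results of these data known. Named genes were MYOD1, every member, and from each list the 3 called members with the largest change and 1 in the other direction, or the 1 with the lowest adjusted p. Other genes named from the lists were chosen after their values were seen. CTGF was read as CCN2. Some entries of the lists are not reported here. Promoter windows came from RefSeq and guides from an oligonucleotide table of the study.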

Additional observations from a re-analysis of the deposited data

How the results depend on the processing

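The number of called subunit genes was 10 under quantile normalization, median centring, cyclic loess, a filter on low values, a trended and robust eBayes, array weights and the mean of all clusters of a gene. It was 9 to 10 when each array was left out in turn, 9 with the replicate block and 11 with no fold threshold, where LAMB1 was added. With a fold threshold of 2 it was 2, with 0 higher and 2 lower. The number of higher genes was 1 with the replicate block and 1 to 2 when each array was left out, and ITGA5 was the gene lost in each case, with an adjusted p of 0.0594 under the replicate block. The number of lower genes was 8 in every other setting except 9 with no fold threshold. At the fold threshold of 25%, 9 of the 10 called genes kept their call and direction in all 14 alternative fits, and the 24 uncalled genes remained uncalled in each fit that held them, the filter having left out 6. The replicate numbers did not pair the arrays (correlations of deviations from -0.05 to 0.03). The related lists held 13 to 15 called genes, and MYOD1 stayed between -2.46 and -2.26.

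With 3 arrays per group from 1 clone, differences between clones were not measured. The files gave no detection limit, which leaves the size of changes near the median of all clusters (4.295) uncertain, ITGB8 and ITGB6 among them. Cross-reading between related probes was not tested.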
